A study of Mus musculus with 2 samples.

Results

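The let-7 family and its relative Mir98 were followed through small-RNA libraries of mouse facial prominences at embryonic day 11.5. The family was taken by name: the 10 loci Mirlet7a-1, Mirlet7a-2, Mirlet7b, Mirlet7c-1, Mirlet7c-2, Mirlet7d, Mirlet7f-2, Mirlet7g, Mirlet7i and Mir98, out of 1973 microRNA loci counted. All libraries come from healthy B6NCrl embryos of both sexes, and the labels name no treatment, transgene or second genotype. They form 1 group of 2 biological replicates. Tissue of 109 embryos was pooled for replicate 1 and of 88 for replicate 2, so spread between single embryos is not visible. Both pools carry the same donor entry, and differences between them may be technical. The total over all loci was 1941745 sense-strand counts in replicate 1 and 2319881 in replicate 2. Levels are counts scaled to a library total of 1000000 (CPM). A locus count does not say which arm of the hairpin a read came from.

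Facial prominences are the swellings of mesenchyme and covering epithelium that merge into the face. The let-7 microRNAs are known as timers of development: they are low in stem and early embryonic cells, accumulate as cells differentiate, and repress growth genes such as Hmga2, Lin28 and Ras family members. Their target choice is set mainly by the seed, the stretch of bases near the 5′ end that pairs with messenger RNAs. LIN28 proteins bind the loop of let-7 precursors and block their processing, so the level of the mature microRNA can differ from that of its transcript. None of these proteins or targets was measured in these libraries.

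The mature 5′ arms (5p) are shown because the family is defined by them and because some loci cannot be told apart by them. They come from RefSeq (GRCm38.p6), whose table matched all 10 members; capitals mark the seed, bases 2 to 8, and the order follows the level of the locus, with single-copy members first and let-7e last.
let-7g-5p: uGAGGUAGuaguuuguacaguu
let-7i-5p: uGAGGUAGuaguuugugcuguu
let-7d-5p: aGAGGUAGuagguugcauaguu
miR-98-5p: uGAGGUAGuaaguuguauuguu
let-7b-5p: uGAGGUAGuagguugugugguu
let-7f-5p: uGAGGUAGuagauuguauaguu
let-7a-5p: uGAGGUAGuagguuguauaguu
let-7c-5p: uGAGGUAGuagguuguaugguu
let-7e-5p: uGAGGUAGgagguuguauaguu

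All 9 distinct arms had the same seed and the same length of 22 bases. Of 1738 mature entries in the table, 13 carried this seed, under 11 names: these 9 arms, let-7k, which was not analysed here, and miR-1961. Mir1961 had 0 counts in both libraries. At these depths 0 counts still allow 1.55 CPM (replicate 1) or 1.29 CPM (replicate 2), the worth of 3 counts. Counted from 1 at the 5′ end, the arms differ outside the seed. Taking let-7a-5p as the reference, let-7c-5p differs by A19G, let-7f-5p by G12A, let-7e-5p by U9G, let-7b-5p by A17G and A19G, and let-7g-5p by G12U and U18C. The difference from let-7d-5p includes the first base (U1A and U16C).

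The number of RefSeq hairpins that hold the 5p arm separates the members. Matches elsewhere in the genome were not searched. For 5 of them, Mirlet7b, Mirlet7d, Mirlet7g, Mirlet7i and Mir98, the 5p arm lay in 1 hairpin of the RefSeq table. The other 5 carry a copy number in their symbol, and each of their 5p arms lay in 2 hairpins: let-7a-5p in Mirlet7a-1 and Mirlet7a-2, let-7c-5p in Mirlet7c-1 and Mirlet7c-2, and let-7f-5p in Mirlet7f-2 and Mirlet7f-1, which was not analysed here. Past the end of the arm the a and c copies share 1 further base and the f copies share 0, and upstream of it all 3 pairs differ at the first base. The 3′ arms (3p) of the numbered loci are shown because they separate some of these copies and not others.
let-7f-2-3p: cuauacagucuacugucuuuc
let-7a-2-3p: cuguacagccuccuagcuuuc
let-7c-1-3p: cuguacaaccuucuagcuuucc
let-7a-1-3p: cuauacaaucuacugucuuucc
let-7c-2-3p: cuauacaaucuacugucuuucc

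The last 2 are the same sequence, so at Mirlet7a-1 and Mirlet7c-2 both arms also occur in another hairpin. Reads with several genomic positions were kept in a class of their own, which held 1081615 reads in replicate 1 and 1388721 in replicate 2, against 69828 and 73210 counts at the 10 members. How many of those reads are let-7 reads was not tested. Levels of the numbered loci are therefore incomplete and are not levels of the let-7a, let-7c or let-7f microRNAs.

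Most counts kept at the members lay at a few single-copy loci. The 10 members together took 3.60% of sense counts in replicate 1 (95% Clopper-Pearson interval 3.57 to 3.62) and 3.16% in replicate 2 (3.13 to 3.18). Of these let-7 counts the 5 single-copy loci held 98.5% ± 0.0782 (SD, n = 2) and the 5 numbered loci 1.51% ± 0.0782. This split describes the reads kept by the counting, which leaves out reads with several positions, and does not include Mirlet7e. Mirlet7g and Mirlet7i alone held 87.7% ± 0.0235. As these are bulk tissue pools, fewer cells with a microRNA and less of it per cell cannot be told apart.

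Mirlet7g, which lies in an intron of Wdr82, a gene for a subunit of histone methyltransferase complexes (GRCm38, chromosome 9, 106178840 to 106178927, plus strand), stood at 18023 CPM (replicate 1) and 14899 CPM (replicate 2), rank 13 of all loci. Mirlet7i, in an exon of the transcribed pseudogene D630033A02Rik (chromosome 10, 122985640 to 122985724, minus strand), stood at 13529 and 12780 CPM, rank 20. Mirlet7g was above Mirlet7i in both libraries and their ranges did not overlap. The excess was 0.41 on the log2 scale in replicate 1 and 0.22 in replicate 2, and the latter was smaller than the difference of Mirlet7g between the pools. The mature arms of these loci differ by A17G and A19U (let-7g-5p as the reference).

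Mirlet7d, in an exon of the long noncoding gene 6720427I07Rik (chromosome 13, 48536012 to 48536114, minus strand), had 2556 and 2230 CPM. Mirlet7i exceeded it by 2.46 ± 0.08 (log2, SD, n = 2). Mir98 lies in an intron of Huwe1, which encodes a ubiquitin ligase (chromosome X, 151913214 to 151913321, plus strand). Its level was 1231 and 1071 CPM, a log2 difference of 1.06 ± 0.0029 below Mirlet7d. Both steps were larger than the difference of either locus between the pools.

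Mirlet7b was the exception among the single-copy loci. It lies in an exon of the long noncoding gene Lncppara (chromosome 15, 85707319 to 85707403, plus strand) and had 194 counts (99.9 CPM) in replicate 1 and 199 counts (85.8 CPM) in replicate 2. Mirlet7g exceeded it by 7.47 ± 0.04 on the log2 scale, although neither the 5p nor the 3p arm of Mirlet7b occurs in another hairpin of the table. Its 5p arm is 1 base from let-7c-5p (G17A, let-7b-5p as the reference). The arms of Mirlet7g, Mirlet7i, Mirlet7d and Mir98, the 4 most abundant members, have no other arm of the family at 1 difference, while those of the other 6 members do. Whether reads with a mismatch moved between such loci was not tested.

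The numbered loci were low in both libraries. Mirlet7f-2, in Huwe1 beside Mir98 (chromosome X, 151912346 to 151912428), had 491 counts (253 CPM) in replicate 1 and 564 counts (243 CPM) in replicate 2. Mirlet7a-2 (chromosome 9, 41536716 to 41536811) had 94.2 and 93.1 CPM, and Mirlet7c-1, in an intron of Mir99ahg (chromosome 16, 77599657 to 77599750), had 86.5 and 82.3 CPM. The ranges of Mirlet7a-2 and Mirlet7b overlapped, as did those of Mirlet7b and Mirlet7c-1, so Mirlet7b has no order against either beyond their spread. The ranges of Mirlet7a-2 and Mirlet7c-1 did not overlap, but their Clopper-Pearson intervals did in each library. Mirlet7a-1 (chromosome 13, 48538179 to 48538272) had 124 counts (63.9 CPM) and 113 counts (48.7 CPM). Mirlet7c-2 (chromosome 15, 85706603 to 85706697) had 47 counts (24.2 CPM) and 59 counts (25.4 CPM), the lowest level of any member. These last 2, lowest in both libraries, are the loci with both arms in another hairpin. From Mirlet7g to Mirlet7c-2 the levels spanned 9.37 ± 0.24 on the log2 scale.

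**Figure D1:**
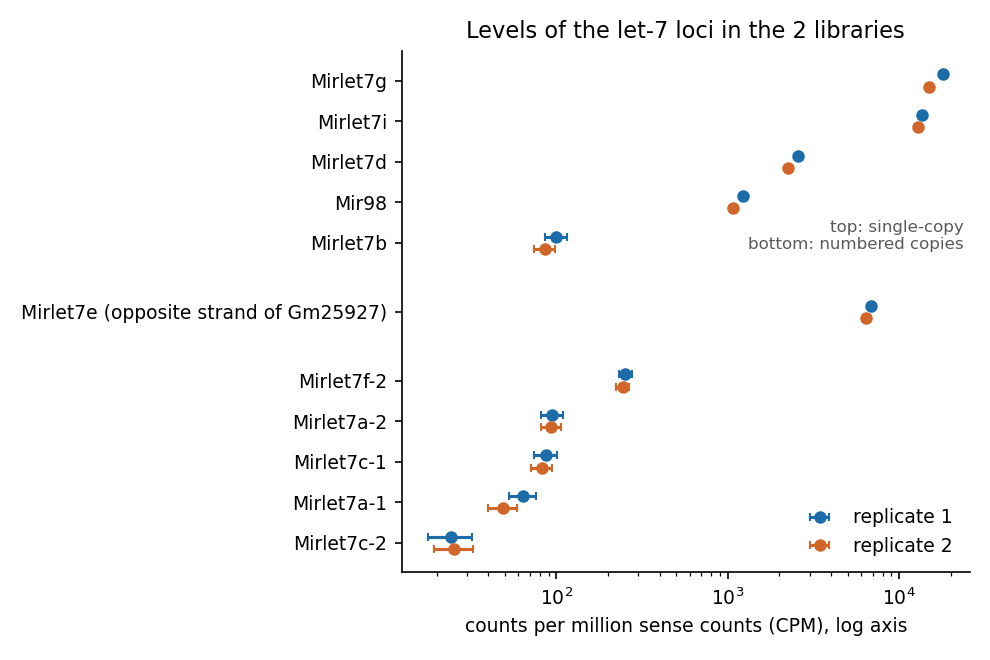
Each point is the level of a let-7 locus in 1 library (CPM, log axis), with bars for the 95% counting interval (Clopper-Pearson); single-copy loci are at the top, Mirlet7e in the middle and numbered copies at the bottom. Along the horizontal CPM axis the points of Mirlet7g and Mirlet7i lie to the right of all others, and those of Mirlet7b lie within the range of the numbered copies.

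**Figure D2:**
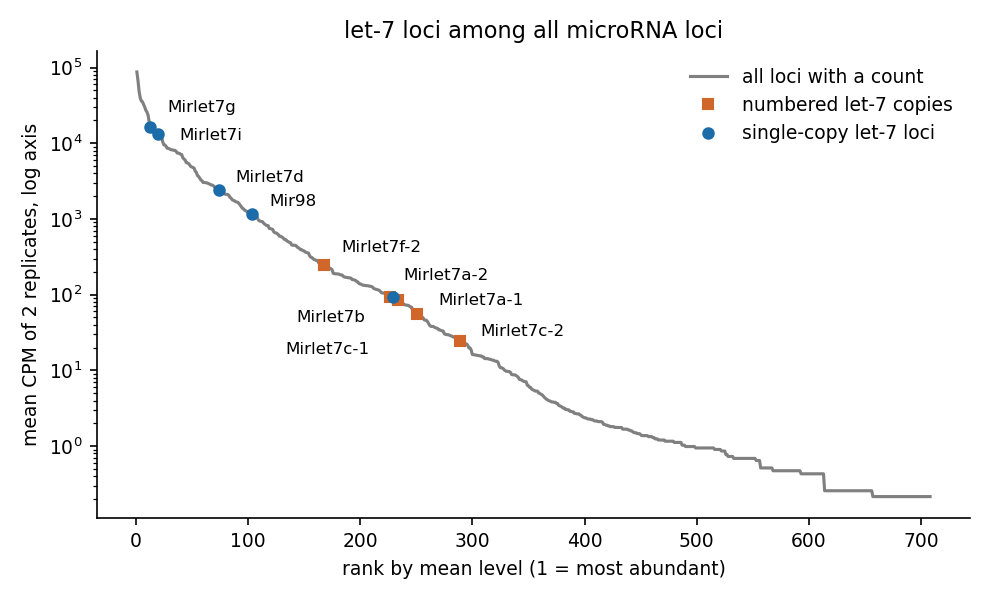
Mean CPM of both replicates (log axis) against rank for the 708 loci with any sense count, with the members marked. The members reach from rank 13 (Mirlet7g) to rank 289 (Mirlet7c-2).

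Mirlet7e, a further family member, entered the tables only through the other strand. The listed locus there is Gm25927 on the minus strand (chromosome 17), which had 0 sense counts in either library but 13259 opposite-strand counts in replicate 1 and 14790 in replicate 2. Mirlet7e lies on the plus strand across the same stretch (17830352 to 17830444), in an intron of Spaca6, a gene for a sperm protein needed for fertilization. Credited to Mirlet7e and scaled to the same sense totals, these counts give 6828 CPM and 6375 CPM. That level lay 0.99 ± 0.01 (log2) below Mirlet7i and 1.47 ± 0.07 above Mirlet7d, and both steps were larger than the differences between the pools. Counted with the 10 members, Mirlet7e would hold 16.4% ± 0.60 of the let-7 counts. The arm let-7e-5p lies in 1 hairpin. It is 1 base from let-7a-5p.

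Most members lie in genomic clusters, and the counts kept differed widely between neighbours. On chromosome 13 Mirlet7d exceeded Mirlet7a-1, which lies in the same noncoding gene, by 5.42 ± 0.14 on the log2 scale. In Lncppara on chromosome 15 Mirlet7b exceeded Mirlet7c-2, 621 bases away, by 1.90 ± 0.21. In Huwe1 Mir98 exceeded Mirlet7f-2, 785 bases away, by 2.21 ± 0.10. In each pair the lower locus is the numbered copy, whose level leaves out reads with several positions. These gaps can therefore not be read as differences in expression between neighbours.

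The remaining clusters join a let-7 locus to a member of the Mir99 and Mir100 family and a member of the Mir125 family, relatives of the worm timing microRNA lin-4. On chromosome 9 Mir100 had 13218 and 14118 CPM, which is 7.19 ± 0.08 (log2) above Mirlet7a-2, and Mir125b-1 exceeded Mirlet7a-2 by 4.91 ± 0.08. On chromosome 16 Mir99a, at 47453 and 49138 CPM, exceeded Mirlet7c-1 by 9.16 ± 0.09 across 656 bases, and Mir125b-2 exceeded it by 2.81 ± 0.09. Mir125b-1 and Mir125b-2 also carry a copy number in their symbol. Their levels may therefore be incomplete too, as those of Mirlet7a-2 and Mirlet7c-1 are. On chromosome 17, where the let-7 locus is single-copy, Mir99b exceeded Mirlet7e by 2.41 ± 0.20. Mir125a was above Mirlet7e by 0.12 in replicate 1 and by 0.44 in replicate 2, no more than its own difference between the pools in the former.

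**Figure D3:**
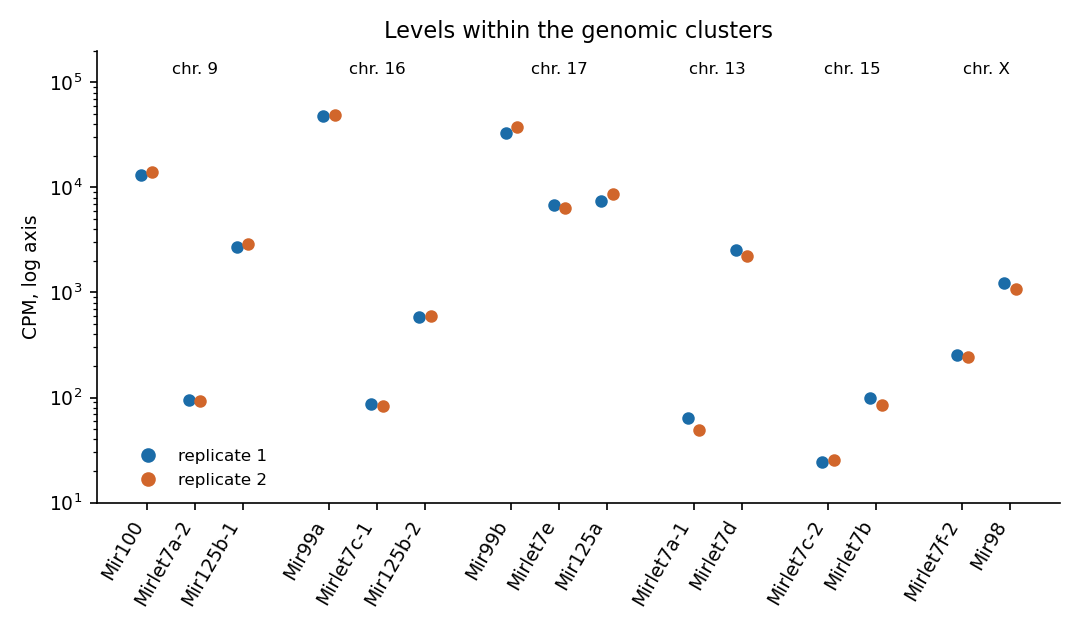
CPM (log axis) of the loci in each of 6 genomic clusters, with 1 point for each replicate. The let-7 locus lies below both neighbours on chromosomes 9 and 16, where it and the Mir125b locus are numbered copies, and near Mir125a on chromosome 17.

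The loops between the arms are shown because LIN28 is known to bind the letters GGAG there. GGAG was searched on the RNA strand in the stretch between the annotated arms, and capitals mark each match; the loops of 4 single-copy loci and of the highest and lowest numbered copy are given.
Mirlet7g loop: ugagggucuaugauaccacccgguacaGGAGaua
Mirlet7i loop: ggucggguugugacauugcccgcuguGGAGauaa
Mirlet7d loop: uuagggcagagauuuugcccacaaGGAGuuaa
Mirlet7b loop: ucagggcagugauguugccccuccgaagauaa
Mirlet7f-2 loop: uuagggucauaccccaucuuGGAGauaa
Mirlet7c-2 loop: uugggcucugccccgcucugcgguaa

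Of the 9 members whose loops were analysed here, 7 had the letters, each time 3 or 4 bases before the 3p arm, and Mirlet7b and Mirlet7c-2 did not. Among the 633 other hairpins with both arms named, 44 (6.95%) had GGAG in the loop, and among the 42 of these with loops of 23 to 34 bases, the range of those members, 5 (11.9%) did. The members with the letters stood anywhere from 56.3 CPM (Mirlet7a-1) to 16461 CPM (Mirlet7g), and those without at 24.8 CPM (Mirlet7c-2) and 92.8 CPM (Mirlet7b). Levels of the numbered copies, Mirlet7a-1 and Mirlet7c-2 among them, are incomplete. Among the loops analysed, Mirlet7b is the only single-copy locus without the letters. Any relation of the letters to level was not tested. A match is a description and not a binding site.

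Let-7 levels were slightly lower in replicate 2. Among the members 9 of 10 had a lower CPM in replicate 2, against 177 (48.8%) of the 363 loci whose counts averaged 10 or more. The median log2 ratio of replicate 2 over replicate 1 was -0.14 for the members, from -0.39 to 0.07, and 0.02 for those 363 loci. Past 2-fold in either direction were 0 members and 5.23% of the loci. The comparison sets 1 library against 1 library, so it has no test.

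Mirlet7g was lower in replicate 2 by a log2 ratio of -0.27 (95% counting interval -0.30 to -0.25), Mirlet7d by -0.20 (-0.25 to -0.14), Mir98 by -0.20 (-0.28 to -0.12) and Mirlet7i by -0.08 (-0.11 to -0.06). Mirlet7a-1 had -0.39 on 124 and 113 counts (-0.77 to -0.01). For these 5 members the interval lay wholly on the side lower in replicate 2, as it did for 20.4% of the 363 loci. Intervals narrow with depth, and the 4 abundant members are far deeper than most loci. Among the 138 loci averaging 1000 counts or more, 79 were lower in replicate 2, and the median log2 ratio was -0.03. Mirlet7b (-0.22, -0.51 to 0.07), Mirlet7c-1, Mirlet7f-2, Mirlet7a-2 and Mirlet7c-2 had intervals that include 0. Mirlet7c-2 was the only member with a higher CPM in replicate 2, at a log2 ratio of 0.07 (-0.51 to 0.66).

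The cluster neighbours lay on the other side. All 6 of Mir99a, Mir99b, Mir100, Mir125a, Mir125b-1 and Mir125b-2 were higher in replicate 2, with log2 ratios from 0.05 to 0.22 and a median of 0.10. Among the 363 loci 186 (51.2%) were higher in replicate 2. The counting interval of Mir125b-2 included 0 (-0.06 to 0.17), and those of the other 5 did not. The share of all loci with an interval wholly on the higher side was not computed. Those 5 loci had at least 5287 counts in each library, a depth at which small differences leave the interval. In the chromosome 17 cluster Mirlet7e had -0.10 (-0.13 to -0.07), while Mir99b had 0.18 (0.16 to 0.19) and Mir125a 0.22 (0.19 to 0.26). These intervals do not overlap, and they cover counting error only. In the other mixed clusters the intervals of Mirlet7a-2 (-0.31 to 0.27) and Mirlet7c-1 (-0.38 to 0.24) took in the ratios of their neighbours.

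**Figure D4:**
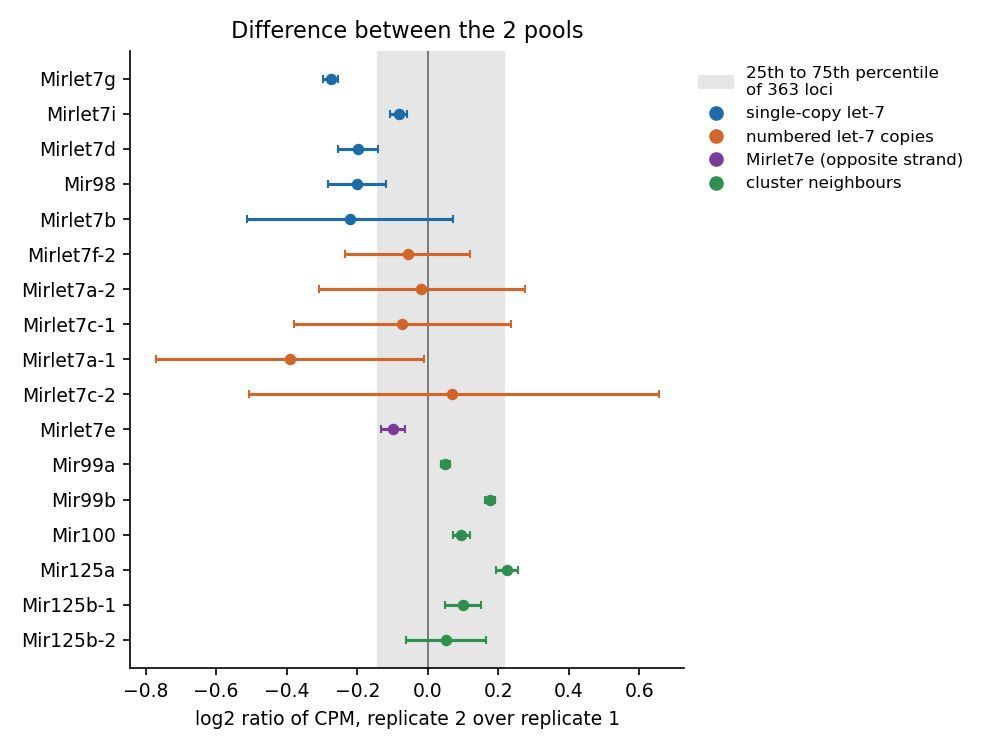
Log2 ratio of CPM, replicate 2 over replicate 1, for the members, Mirlet7e and the cluster neighbours, with 95% counting intervals; the grey band spans the 25th to 75th percentile of the 363 loci averaging 10 counts or more. Single-copy let-7 loci lie left of 0 and the neighbours right of it.

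Markers of muscle, of erythroid cells, and of lens and retina differed between the pools by more than 2-fold, and the other marker lists differed less. In the labelled tissue, mesenchyme markers (5 of 5 averaging 10 counts or more) summed to 3.91% of counts in replicate 1 and 4.13% in replicate 2, and epithelial markers (7 of 7) to 3.31% and 2.95%. Of 8 muscle markers listed 7 were matched. Those (4 of 7 at that minimum, with Mir133a-1 and Mir133a-2, themselves numbered copies, at 0) summed to 0.0618% and 0.147%. Erythroid markers (2 of 2) summed to 0.0264% and 0.0593%, and lens and retina markers (3 of 3) to 0.207% and 0.0986%. Leukocyte markers (2 of 2 matched, of 3 listed) summed to 0.0393% and 0.0476%, and the endothelial Mir126a to 3.90% and 4.04%. Neural markers (1 of 5 at the minimum) summed to 0.0031% and 0.0033%. Of 6 neural markers listed 5 were matched, with Mir124a-3 at 0. All of them are numbered copies too, so their sum may be incomplete and is not a measure of neural tissue. The mesenchyme and muscle lists also hold numbered copies, and their sums may be incomplete. The part of these marker differences in the let-7 difference was not tested.

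The Mir302 family and its relatives of the embryonic stem cell cluster are known to have effects opposite to let-7 in pluripotent cells. The 8 listed loci took 0.542% of sense counts in replicate 1 and 0.481% in replicate 2, against 3.60% and 3.16% for the let-7 members. The let-7 share leaves out Mirlet7e and reads with several positions. Nearly all of the share of the 8 listed loci came from the 4 Mir302 loci, at 0.532% and 0.471%. Mir302a had 1825 and 1654 CPM and Mir302d 1803 and 1518 CPM, levels between those of Mirlet7d and Mir98. The other 4 loci, of the embryonic stem cell cluster, had means of 2.32 to 89.0 CPM.

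By distance in log2(CPM + 1) over the 2 libraries, the loci nearest to Mirlet7g were Mir93 (0.20), Mir26b (0.34) and Mir183 (0.34), and those nearest to Mirlet7i were Mir18 (0.06), Mir652 (0.10) and Mir106b (0.13). With 2 libraries this measures likeness of level and of the difference between the pools only.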

How the data were processed

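Total RNA of 2 tissue pools was sequenced as small RNA with a size range below 30, per the labels. The deposited values are raw read counts per microRNA gene on mm10 with GENCODE M4, per the text files deposited beside them. Aligner and counting program are not given in the sources used here. Columns give counts irrespective of strand, on the sense strand and on the opposite strand. Sense counts were used (97.0% and 96.8% of stranded counts). Lines that name no gene held 59.2% and 65.8% of reads, including 22.7% and 20.5% with several positions, and were left out of totals.

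Symbols and positions came from GENCODE M21, on the same GRCm38 assembly: 1894 of 1973 identifiers matched with versions ignored. CPM was computed from sense totals. Ratios between pools had 0.5 counts added, and intervals are exact binomial at 95%; without molecular identifiers they cover counting error only. Levels of loci were compared directly, without scaling to length. The let-7 arms are 21 or 22 bases long, and arm lengths of the other loci compared were not checked. Whether microRNAs of different sequence were captured equally well was not tested. Arms, loops and copies were read from RefSeq tables; the loop of 1 member is not reported here. Genes named were all members, other loci with the seed, cluster neighbours, up to 2 loci of the stem cell list and the 3 loci nearest to each of the 2 most abundant members. Members and lists were chosen with earlier results of these data known. With 1 group there is no test. Alternatives were TMM factors from edgeR 4.0.16, DESeq2 1.42.0 size factors, other totals, strands, minimums and limits. The ratio step was tested on simulated data. Software was R 4.3.3 and Python 3.11.15 with scipy 1.17.1, pandas 2.3.3, matplotlib 3.10.9 and numpy 2.4.6.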

Additional observations from a re-analysis of the deposited data

Results flagged for a closer look

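Counts on the opposite strand, which lie outside the sense counts used for the members, were above the limit of 3 counts at 2 loci of the family. Opposite to Gm25927, at the position of Mirlet7e, there were 13259 counts in replicate 1 and 14790 in replicate 2. Opposite to Mirlet7b there were 14 counts in replicate 1 and 19 in replicate 2, which is 6.73% and 8.72% of its counts on both strands. The other 9 members had no opposite-strand count in either library.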

How the results depend on the processing

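The let-7 share of counts, 3.38% on average, was 1.94% when all mapped reads formed the total and 4.01% when the opposite-strand counts of Mirlet7e were added to the family and the total. It ranged from 3.16% without replicate 1 to 3.60% without replicate 2. Both strands together moved it, and the single-copy share, by less than the spread between replicates. Classing loci by their 5p arm in place of their symbol gave the same 5 single-copy loci, so the single-copy share could not move. The count of 9 members lower in replicate 2 was also 9 with TMM factors, with DESeq2 size factors, with no minimum and with a minimum mean count of 100 (9 members then compared). Over all 363 loci 48.8% were lower in replicate 2, also with either scaling. No member passed 2-fold under any of these, or 1.5-fold. The share of all loci past the limit was computed for 2-fold at the main settings only, where it was 5.23%. Without that share at 1.5-fold, 0 members there sets them apart from no other loci. No log2 ratio between the pools changed sign under either scaling or another added count. Levels of all 10 members fell outside the replicate spread when scaled to all mapped reads, as that total is larger; 2 of 10 did with both strands. Leaving out a replicate leaves no ratio between pools to compute. Depth limits the numbered loci and Mirlet7b most.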
